A study of Mus musculus with 2 samples.

Results

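The messenger RNAs of 10 genes that build, coat and clear plasma lipoproteins were followed in mouse liver during regeneration. The genes were Apoa1, Apoa2, Apoa4, Apoa5, Apob, Apoc1, Apoc3, Apoe, Apom and Mttp. They were taken by symbol out of 34745 genes listed, and all 10 were found, each with 1 row. All 10 also passed the minimum of 10 counts summed over KO and WT, as did 13561 genes in all, which were kept for the comparison. Male mice, 8 to 10 weeks old, were either heterozygous miR-182-5p knockout mice (genotype label miRNA-182 KO, called KO here) or wild-type mice (WT). Both groups received 2/3 partial hepatectomy (PH), in which 70% of the liver is removed and the remaining lobes grow back, and liver was taken at day 3. The KO is not limited to a cell type, and heterozygous mice keep 1 copy of the gene. RNA-seq was run on 1 library per genotype, and how many mice went into a library was not given in the sources used here. The comparison was made to ask how hepatic gene expression differs when miR-182-5p is reduced during liver regeneration.

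The genes were selected on their roles with the KO and WT counts of this same comparison already known, that of Apob above all, so the differences below are a description and no test was made. With 1 library per genotype, the variation between mice cannot be estimated. Every interval given is a 95% interval that covers counting error only, and PCR copies narrow it further than independent molecules would. In whole liver, fewer cells of a type and less RNA per cell cannot be told apart. The count table used here has 0 rows named Mir182, so the genotype labels could not be checked against it.

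The liver exports triglyceride and cholesterol in very low-density lipoproteins (VLDL). The microsomal triglyceride transfer protein, encoded by Mttp, loads lipid onto the large scaffold protein ApoB in the endoplasmic reticulum, and smaller apolipoproteins join the particle there or in plasma. ApoE is the ligand through which remnant particles are taken up by the liver, whereas ApoC1 and ApoC3 slow lipolysis and uptake. ApoA5 promotes lipolysis, and ApoA1 and ApoA2 are the main proteins of high-density lipoprotein (HDL). ApoA4 travels on chylomicrons and HDL, and ApoM carries sphingosine-1-phosphate on HDL. In the mouse, Apoa1, Apoc3, Apoa4 and Apoa5 lie side by side on chromosome 9, and Apoe, Apoc1, Apoc4 and Apoc2 form a second cluster on chromosome 7.

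The mature miR-182-5p, from mouse chr6:30165962-30165986 on the minus strand (GRCm38.p6, sequence from RefSeq), is shown because its seed (bases 2 to 8, in capitals) defines the target sites searched for in the 10 transcripts.
miR-182-5p: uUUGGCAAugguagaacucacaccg

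A site that pairs with the seed reads TTGCCAA in the transcript. In GENCODE M21 (GRCm38), none of the 10 genes has this site in its longest annotated 3′ UTR, against 13.3% of 12573 kept genes with a 3′ UTR. These 3′ UTRs measure 941 bases in Apob, 1188 in Apoa5 and 1204 in Mttp and only 67 to 293 in the other 7 genes, whereas the median over all those genes was 1308 bases. The coding sequence of Apob (13515 bases) holds 2 such sites, at coding bases 1790 and 10523, and those of the other 9 genes hold none. Both are shown with 11 bases on each side, the site in capitals.
Apob coding site 1: ggcatctcacaTTGCCAAcatcttgaact
Apob coding site 2: ttcaggaagtgTTGCCAAtgaagccaatg

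A site is common in coding sequences of that length, since 48 of 65 coding sequences of at least 10000 bases hold at least 1, compared with 16.5% of all 12581 coding sequences. A match of letters is a description and no evidence of binding.

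Promoter windows were read from RefSeq (GRCm38.p6), from 250 bases before to 50 bases after the annotated start, and 8 of the 10 genes had 1 or more. Apoc1 and Apoc3 are named only. The windows of Apob, Apoa4 and Apoe are shown because these were the 3 genes at least 2-fold lower in KO, and those of Apoa1 and Apoa5 because they are neighbours of Apoa4 that were not. All are printed in the direction of transcription. Capitals mark TATAAA (the TATA box), GACCTTTG and CAAAGTTCA (parts of elements for nuclear receptors of the HNF4A type), CACGTG (the E-box) and TTTGGCAA, the complement of an 8-base miR-182-5p site.
Apob, chr12:7977427-7977726, plus strand: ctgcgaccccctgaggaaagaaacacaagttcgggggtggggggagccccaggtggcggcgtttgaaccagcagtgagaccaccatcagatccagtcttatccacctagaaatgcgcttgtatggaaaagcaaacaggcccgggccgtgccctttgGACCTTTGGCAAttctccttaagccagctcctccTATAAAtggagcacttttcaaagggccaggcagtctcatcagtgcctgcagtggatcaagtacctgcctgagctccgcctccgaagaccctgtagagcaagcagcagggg
Apoa4, chr9:46240594-46240893, plus strand: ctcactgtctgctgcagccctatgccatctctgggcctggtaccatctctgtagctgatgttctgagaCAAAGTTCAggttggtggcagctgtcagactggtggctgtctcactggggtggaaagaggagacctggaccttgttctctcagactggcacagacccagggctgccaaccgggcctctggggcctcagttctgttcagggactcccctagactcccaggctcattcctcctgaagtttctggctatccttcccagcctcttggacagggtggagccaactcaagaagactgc
Apoe, chr7:19699139-19699438, minus strand, the first of 3 windows: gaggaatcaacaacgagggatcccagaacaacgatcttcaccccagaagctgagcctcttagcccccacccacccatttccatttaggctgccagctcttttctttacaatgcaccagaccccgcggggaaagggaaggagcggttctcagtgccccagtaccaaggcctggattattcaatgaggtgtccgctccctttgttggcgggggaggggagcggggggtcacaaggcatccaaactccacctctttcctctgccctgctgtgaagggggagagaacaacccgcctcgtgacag
Apoa1, chr9:46228380-46228679, plus strand: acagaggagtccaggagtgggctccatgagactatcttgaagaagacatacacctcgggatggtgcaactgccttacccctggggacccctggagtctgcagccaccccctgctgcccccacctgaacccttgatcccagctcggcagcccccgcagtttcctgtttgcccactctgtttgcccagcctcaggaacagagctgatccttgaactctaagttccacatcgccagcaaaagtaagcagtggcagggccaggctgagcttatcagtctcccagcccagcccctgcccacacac
Apoa5, chr9:46268358-46268657, plus strand, the first of 2 windows: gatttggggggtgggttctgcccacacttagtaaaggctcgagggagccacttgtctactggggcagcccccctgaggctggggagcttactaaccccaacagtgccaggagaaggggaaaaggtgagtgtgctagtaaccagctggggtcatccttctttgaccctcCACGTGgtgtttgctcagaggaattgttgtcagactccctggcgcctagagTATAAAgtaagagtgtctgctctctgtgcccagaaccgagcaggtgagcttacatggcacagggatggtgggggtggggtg

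In the Apob window, GACCTTTG begins 94 bases before the start and overlaps TTTGGCAA, which begins 90 bases before it, and TATAAA begins 60 bases before it. CAAAGTTCA lies further upstream of the RefSeq start in the Apoa4 window, and CACGTG begins 82 bases before the start of Apoa5. In the authors' coordinates Apoa4 begins at chr9:46240696, which lies inside this window and before the RefSeq start. Part of the Apoa4 window is therefore within the gene, and fewer than 250 bases before that gene start were searched. The same holds for Apob, which begins at chr12:7977648, and Apoa1, at chr9:46228580. CAAAGTTCA in Apoa4 and the marked letters in Apob lie before both starts of their gene and nearer to the authors' start. On either strand, CAAAGGTC (the reverse complement of GACCTTTG) was found in 1.17% of 32851 mouse promoter windows, and Apoe also has it in another of its windows. CAAAGTTCA was found in 0.390% of the windows, TATAAA (also in windows of Apoa2 and Apoe) in 13.6% and CACGTG in 7.15%. Of the other letters searched on both strands, GGGGCGGGG (11.4% of windows) was found in Mttp, and CAAAGTCCA (0.475%), TTATGTAA (0.938%) and TTGCGCAA (0.183%) in none of the 8 genes. TTGCCAAA or its complement was in 1.09% of all windows and, among the 8 genes, in that of Apob alone. No single searched motif was shared by the 3 lower genes, since the window of Apoa4 held only CAAAGTTCA. GACCTTTG and CAAAGTTCA are both parts of elements for receptors of the HNF4A type. Among the 8 genes, the exact letters of one or the other were found in windows of Apob, Apoe and Apoa4 alone. These 2 motifs were put together with the values known, and other forms of such elements were not searched, so nothing is read from this. Of 9957 kept genes with any window, 9.17% were at least 2-fold lower and 8.60% higher. Of those with GACCTTTG or its complement in a window, 10 of 144 were lower (6.94%) and 13 higher (9.03%). For CAAAGTTCA these were 5 and 5 of 50 (10% each). A part of these elements in the lower counts was not tested.

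The KO library held 13247497 counts and the WT library 13163348. The 13 mitochondrial protein-coding genes and 7 nuclear copies of them took 56.5% of the counts in KO and 33.9% in WT, which leaves 5760327 and 8703446 counts for all other genes. Counts were therefore scaled by edgeR's TMM method and are given as CPM, the count scaled to a common library size. The median log2 fold change (KO over WT) of the 13561 kept genes was 0.00 with TMM and −0.60 when total counts were used. Apob, Apoa4, Apoe and Apom lay below 0 under both, and Apoc1 above 0 under both. The other 5 genes (Apoa1, Apoa2, Apoa5, Apoc3 and Mttp) lay above 0 with TMM and below 0 with total counts, so no direction is drawn for them from either.

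With TMM, 3 of the 10 genes were at least 2-fold lower in KO and 0 were at least 2-fold higher. Over all kept genes, 9.94% were at least 2-fold lower and 9.46% at least 2-fold higher. With total counts Apom joined them, which made 4 of 10 lower and 0 higher, against backgrounds of 26.6% and 4.6%. With TMM the median log2 fold change of the 10 genes was 0.14, with single genes from −2.96 to 0.79, and that of all kept genes was 0.00. With total counts these medians were −0.46 and −0.60.

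**Figure D1:**
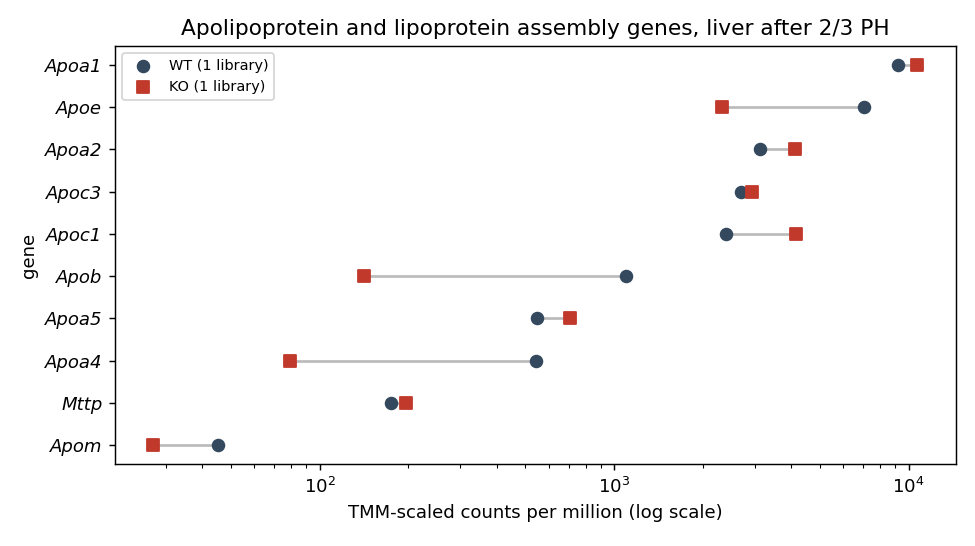
TMM-scaled CPM of each gene (log axis) in the WT library (circles) and the KO library (squares), 1 library per genotype, with no error bar because there are no replicates. The long gaps are those of Apob (1098 to 141), Apoa4 (544 to 79.6) and Apoe (7046 to 2330), whereas Apoa1, Apoc3 and Mttp nearly coincide.

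Among the genes of particle assembly, the scaffold gene Apob had 17808 counts in WT and 1517 in KO (1098 and 141 CPM). It was 7.78-fold lower in KO (7.39 to 8.21), with log2 fold change −2.96 (−3.04 to −2.89), the largest difference among the 10 genes. Mttp, whose protein loads lipid onto ApoB, had 2833 counts in WT and 2106 in KO (175 and 196 CPM), a log2 fold change of 0.16 (0.08 to 0.25). The scaffold and its loading factor thus parted. There were 6.29 Apob counts per Mttp count in WT and 0.720 in KO, a ratio 8.73 times lower in KO (8.08 to 9.42) that does not depend on how the libraries were scaled. Against albumin (Alb), the main secreted protein of hepatocytes, the Apob count was likewise 7.44 times lower (7.06 to 7.84).

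Apob spans chr12:7977648-8016835 on the plus strand. Of its 51-base words, 0% occur in an annotated transcript of another gene, and the same holds for the other 9 genes. No gene of GENCODE M21 overlaps Apob, whereas Mttp overlaps Trmt10a, with 79 counts in WT and 54 in KO, and the antisense gene Gm43691, with 0 in both. It was one of 194 kept genes with a length over 12 kb (as used for the authors' FPKM) and at least 1000 counts. Of these 194 genes, 6 were at least 2-fold lower in KO and Apob was the lowest. The median log2 fold change rose with length, from −0.18 in genes up to 1 kb to 0.15 in the 1668 genes over 12 kb, where 8.27% were at least 2-fold lower. With lengths from merged GENCODE exons, 3 of 79 genes over 12 kb and 1000 counts were at least 2-fold lower. Of 34 genes in a list of long transcripts of hepatocytes, 0 were at least 2-fold lower or higher, and their median was 0.21. C3 and Pzp, long transcripts of secreted plasma proteins, had log2 fold changes of −0.07 and −0.11. The part of length in the Apob value was not tested.

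**Figure D2:**
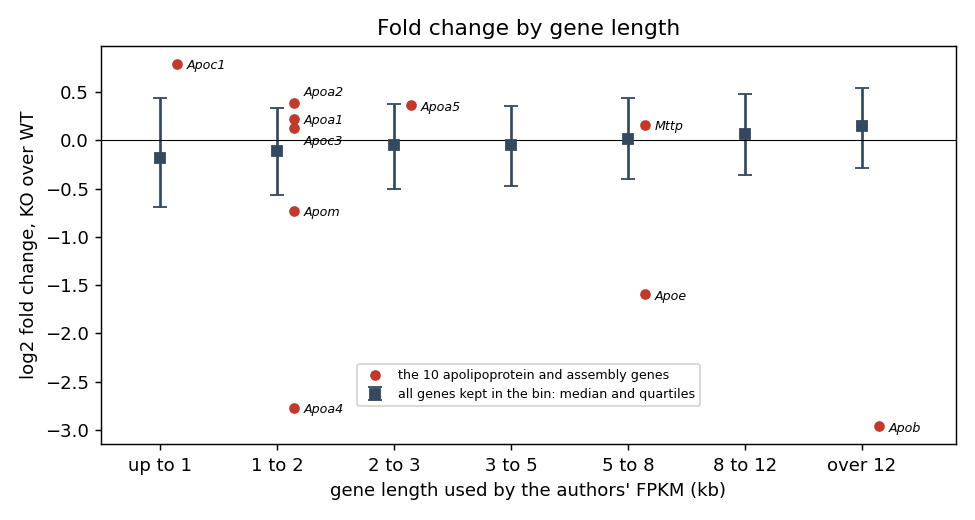
Log2 fold change (KO over WT, TMM) by the gene length behind the authors' FPKM (kb). For some genes this length exceeds the gene's span, as for Apoe (5592 against 3058 bases), so the class is too long for them. Squares are the medians of all kept genes of a length class, bars run from the lower to the upper quartile, and circles are the 10 genes, with Apob at −2.96 in the class over 12 kb, whose median was 0.15.

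The gene coding for the remnant ligand, Apoe (chr7:19696109-19699166, minus strand), had 114246 counts in WT and 25062 in KO (7046 and 2330 CPM). It was 3.02-fold lower in KO (2.98 to 3.07), a log2 fold change of −1.60. Its neighbour Apoc1 (chr7:19689484-19692658, minus strand), whose protein hinders receptor uptake of VLDL, ends 3.45 kb from it and had 38838 counts in WT and 44594 in KO (2395 and 4146 CPM). Its log2 fold change was 0.79 (0.77 to 0.81), the highest of the 10 and short of 2-fold. WT liver therefore held 2.94 Apoe counts per Apoc1 count and KO liver 0.562, a ratio 5.23 times lower in KO (5.13 to 5.34).

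The cluster on chromosome 7 was split in the same way further along. Apoc2, whose protein activates lipoprotein lipase, had 6374 counts in WT and 2196 in KO, a log2 fold change of −0.94. Apoc4, which overlaps the Apoc2 locus, had 12569 and 9672 counts and a log2 fold change of 0.21. Because these genes overlap and the strand setting of the counting was not given, the counts of Apoc2 and Apoc4 are uncertain. Of the 12 kept neighbours in a list of the region, 0 were at least 2-fold lower in KO and 1 was higher. That was Zfp296, with 18 counts in WT and 29 in KO, named here after its values were seen. Over all kept genes, 9.94% were at least 2-fold lower and 9.46% higher. Tomm40, the next gene beyond Apoe, had a log2 fold change of −0.23. Clptm1 and Bcam had values of −0.13 and −0.19.

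The cluster on chromosome 9 held 4 of the 10 genes within 43.3 kb. Apoa4 (chr9:46240696-46243459, plus strand) had 8819 counts in WT and 856 in KO (544 and 79.6 CPM). It was 6.83-fold lower in KO (6.37 to 7.34), a log2 fold change of −2.77 (−2.88 to −2.67). Its neighbours on either side did not share this.

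Apoc3 (chr9:46232933-46235636, minus strand), whose protein inhibits lipolysis, had 43763 counts in WT and 31639 in KO (2699 and 2942 CPM), a log2 fold change of 0.12 (0.10 to 0.15). Apoa1 (chr9:46228580-46230466, plus strand), the gene of the main HDL protein, had 148641 and 115022 counts (9167 and 10695 CPM), a log2 fold change of 0.22 (0.21 to 0.23). Apoa5 (chr9:46268633-46271919, plus strand), whose protein promotes lipolysis, had 8883 and 7593 counts (548 and 706 CPM), a log2 fold change of 0.37 (0.32 to 0.41). In WT, Apoa4 and Apoa5 had nearly equal counts, at 0.993 Apoa4 counts per Apoa5 count, and in KO this ratio was 0.113. Relative to Apoa1, Apoa4 was 7.97 times lower in KO (7.43 to 8.56), and relative to Apoc3 it was 7.45 times lower (6.93 to 8.00).

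Of 10 listed neighbours outside the apolipoprotein genes, 0 were at least 2-fold lower and 3 at least 2-fold higher in KO. Over all kept genes these shares were 9.94% and 9.46%. Bud13, a splicing factor gene, had 177 counts in WT and 344 in KO and a log2 fold change of 1.55. Zpr1, the zinc finger gene next to Apoa5, had 1043 and 1594 counts and a log2 fold change of 1.20. The third was Bace1, with 121 and 204 counts and 1.34. Under total counts 0 of these 3 passed 2-fold. The annotation has 2 genes on the other strand that overlap Apoa4, Gm10680, which had 8 counts in WT and 0 in KO, and Gm47528, for which no row is listed. The antisense gene Gm47544, also with no row listed, overlaps Apoa5. How reads of such overlaps were assigned is not known.

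**Figure D3:**
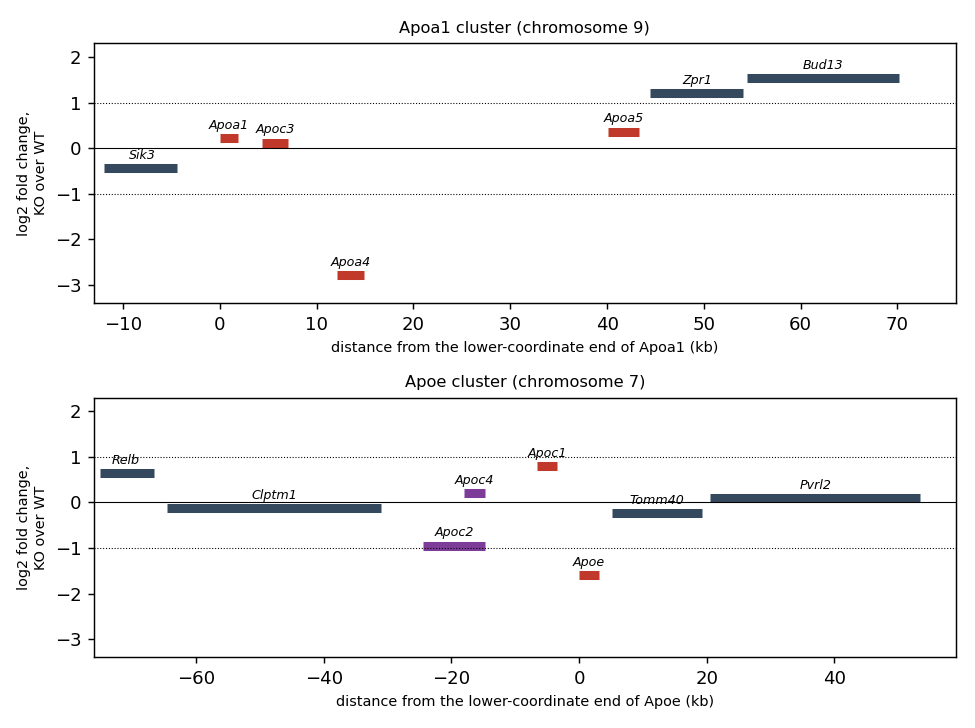
Log2 fold change (KO over WT, TMM) of kept genes against their distance in kb from Apoa1 (upper panel) and from Apoe (lower panel). Bars span each gene, with the 10 genes in red, other apolipoprotein genes in purple and other neighbours in dark blue, and dotted lines mark a 2-fold change. Apoa4 at −2.77 and Apoe at −1.60 are the lowest genes drawn in their panels, followed by Sik3 at −0.42 and Apoc2 at −0.94.

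The remaining genes code for proteins of HDL. Apoa2 (chr1:171225054-171226379, plus strand) had 50895 counts in WT and 44057 in KO (3139 and 4097 CPM), a log2 fold change of 0.38 (0.37 to 0.40). Apom (chr17:35128997-35132050, minus strand) had 733 counts in WT and 293 in KO (45.2 and 27.2 CPM). Its log2 fold change of −0.73 (−0.93 to −0.53) fell short of 2-fold with TMM, whereas it was −1.33 with total counts. Relative to Apoa1, the partner protein gene on HDL, Apom was 1.94 times lower in KO (1.69 to 2.22). Apom had the fewest counts of the 10 genes, and its interval was the widest.

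**Figure D4:**
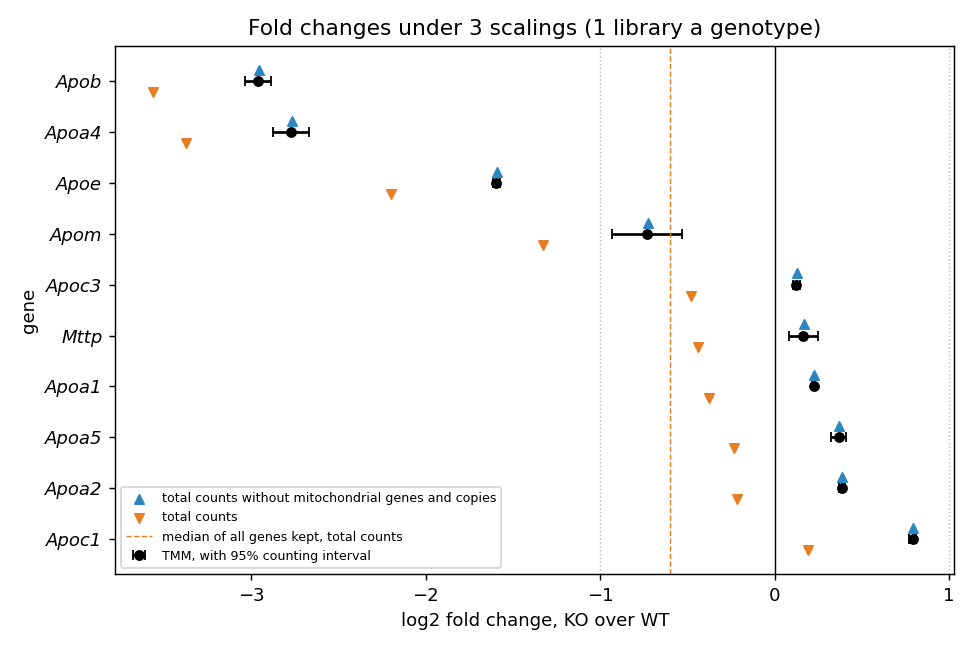
Log2 fold change (KO over WT) of the 10 genes with TMM (circles, with 95% counting intervals), with total counts without mitochondrial genes and copies (upward triangles) and with total counts (downward triangles). The dashed line marks the median of all kept genes with total counts (−0.60), and Apob, Apoa4 and Apoe lie beyond the 2-fold line under all 3 scalings.

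Levels of different genes were compared per length, as RPKM over merged exons, with mitochondrial genes and copies left out of the library total. In WT the order was Apoa1 (13817), Apoa2 (10890), Apoe (6140), Apoc1 (5998), Apoc3 (4959), Apoa4 (558), Apoa5 (405), Apob (147), Apom (83.1) and Mttp (52.4). In KO it was Apoa1 (16155), Apoa2 (14243), Apoc1 (10405), Apoc3 (5417), Apoe (2035), Apoa5 (523), Apoa4 (81.9), Mttp (58.9), Apom (50.2) and Apob (18.9). Apoe thus stood next to Apoc1 in WT and below Apoc3 in KO, and Apob went from above Apom and Mttp to the last place. Among all genes outside the mitochondrial set, Apob was at rank 367 in WT and 2045 in KO, Apoa4 at 97 and 601, and Apoe at 9 and 28. With no second library, the spread of these levels between mice is unknown, so neighbours as close as Apoe and Apoc1 in WT, or Mttp and Apom in KO, cannot be ordered.

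The 10 genes together took 5.00% of the non-mitochondrial counts in WT and 4.73% in KO. Within the 10, the share of Apoe was 26.2% in WT and 9.19% in KO, that of Apob 4.09% and 0.556%, and that of Apoa4 2.03% and 0.314%. The share of Apoa1 was 34.1% and 42.2%, and that of Apoc1 8.92% and 16.4%. The other 7 genes, without Apob, Apoa4 and Apoe, took 3.38% of the non-mitochondrial counts in WT and 4.26% in KO.

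Changes of at least 2-fold were less common among abundant transcripts than among all kept genes (9.94% lower and 9.46% higher). Of the genes outside the mitochondrial set with at least 10000 counts in KO and WT together, 10 were at least 2-fold lower in KO (5.49%) and 8 higher (4.40%). Apob was the lowest of these and Apoe the third lowest, with Gstm3, a glutathione transferase gene, between them at −2.65. Of 2070 genes with at least 1000 counts, 86 were at least 2-fold lower (4.15%), and Apob, Apoa4 and Apoe ranked 11, 14 and 25 from the lowest. The minimums were set on both libraries together. Apob and Gstm3 reached 10000 only through WT, with 1517 and 1084 counts in KO, and Apoa4 reached 1000 only through WT, with 856 in KO. These ranks describe genes that were picked with their values known and are no separate evidence.

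**Figure D5:**
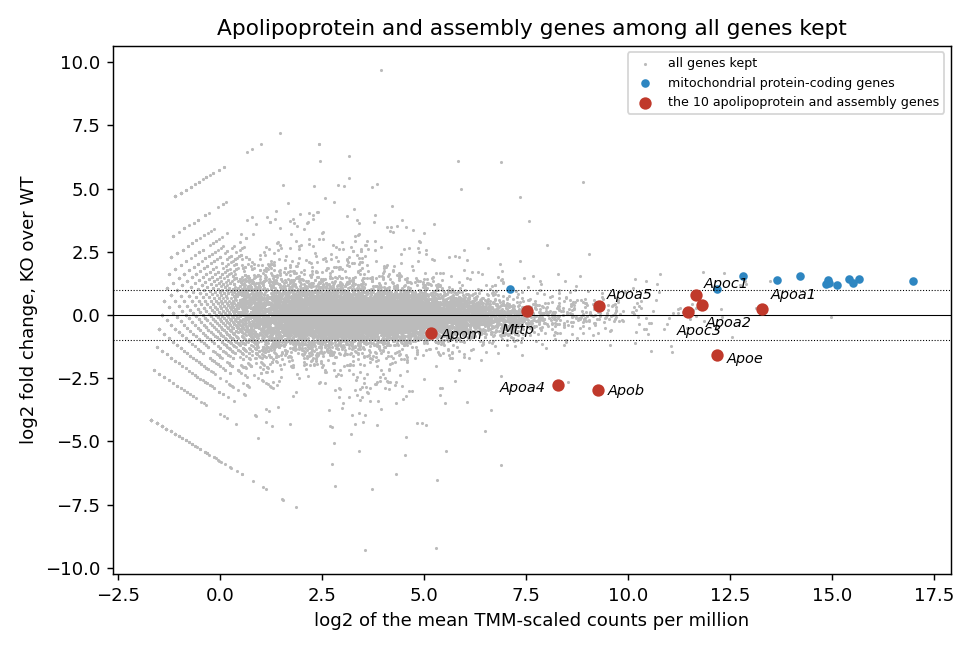
Log2 fold change (KO over WT, TMM) of all 13561 kept genes against the log2 of the mean CPM of both libraries, with the mitochondrial protein-coding genes in blue and the 10 genes in red. Dotted lines mark a 2-fold change. Apob, Apoa4 and Apoe lie at −2.96, −2.77 and −1.60, apart from most genes of similar abundance.

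Genes of neighbouring steps were read from fixed lists. With TMM, 9.94% of all kept genes were at least 2-fold lower and 9.46% higher, the shares to set beside each list below. Among 18 other apolipoprotein genes kept, 1 was at least 2-fold lower and 2 were higher, with a median log2 fold change of 0.01. Clu, which codes for the HDL-associated chaperone clusterin, had 25582 counts in WT and 7910 in KO (−1.10). Apol9b and Apol9a, near-identical paralogues whose reads may be split between them, had log2 fold changes of 1.22 and 1.17. The acute-phase apolipoprotein genes Saa1 and Saa2, which had the most counts of the list beside Clu, had values of −0.34 and −0.33.

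Of 43 genes for lipoprotein assembly and secretion, 5 were at least 2-fold lower (11.6%) and 4 higher (9.30%), with a median of −0.08. The higher genes were Ces3b (1073 counts in WT and 4823 in KO, 2.76) and Ces3a (12785 and 21274, 1.33), carboxylesterase genes that are close paralogues, so reads may be split between them. The others were Hspa5, the chaperone BiP of the endoplasmic reticulum (1508 and 2783, 1.48), and Sel1l, of endoplasmic reticulum degradation (37 and 116, 2.22). The lower genes with at least 100 counts were Ces1d, whose carboxylesterase mobilises stored triglyceride (1225 and 290, −1.49), and Ces1g (1793 and 585, −1.02). The rest were Pnpla3, Mia2 and Cidec, with 71, 19 and 11 counts in WT and 18, 2 and 0 in KO, named after their values were seen. P4hb, the subunit that pairs with the Mttp protein, had 11603 counts in WT and 7679 in KO, a log2 fold change of 0.00, and Hsp90b1 had 0.35.

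The deaminase that edits Apob mRNA to its shorter form, Apobec1, had 53 counts in WT and 126 in KO, with a value of 1.83 (1.37 to 2.33) on the log2 scale. It was the only gene of 6 in the editing list at least 2-fold changed. Its cofactors A1cf and Rbm47 had values of −0.04 and −0.07, and Khsrp had 0.08. Gene counts carry no information on the edited base, so the edited share of Apob was not analysed here.

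On the side of uptake, 3 of 17 receptor and uptake genes were at least 2-fold lower and 0 higher, with a median of 0.01. The fatty acid transporter gene Cd36 had 320 counts in WT and 37 in KO (−2.51, from −3.05 to −2.03). The others, Gpihbp1 and Mylip, had 45 and 30 counts in WT and 10 and 7 in KO, and were named after their values were seen. Lrp1, which codes for an ApoE receptor, had a log2 fold change of 0.53, Lsr had 0.07 and Sdc1 −0.70. Of 18 genes for remodelling of plasma lipoproteins, 2 were at least 2-fold lower (Lipg and Pcolce2, with 15 and 19 counts in WT and 3 and 6 in KO, named after their values were seen) and 0 higher, with a median of 0.01. Abca1, which loads lipid onto ApoA1, and Lipc, hepatic lipase, both had values of 0.01, Ces1c had 0.03, and Lcat, which ApoA1 activates, 0.33.

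Of 37 transcription factor genes with known roles at apolipoprotein promoters, 2 were at least 2-fold lower and 4 higher, with a median of 0.23. Hnf4a, whose product binds elements of the kind marked in the Apob and Apoa4 windows, had 4601 counts in WT and 3168 in KO, a log2 fold change of 0.05. Creb3l3, coding for an activator of Apoa4 in liver, had a value of 0.35, and Mlxipl 0.52. The higher genes were the clock repressor gene Nr1d1 (129 and 534, 2.64) and the bile acid receptor gene Nr1h4 (911 and 1998, 1.72). Nr0b2, a repressor that the product of Nr1h4 induces, had 123 and 238 counts (1.54), and Nr2f1, with 14 and 19 counts, was named after its values were seen. The lower genes were Rora (576 and 126, −1.60), whose product opposes that of Nr1d1 at shared elements, and Pparg (81 and 24), named after its values were seen.

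Other secreted hepatocyte proteins gave a point of reference. Of 37 such genes, 0 were at least 2-fold lower and 1 higher, Serpina1e, a member of a near-identical gene family, with a log2 fold change of 1.69. Their median was 0.04, and Alb, Hpx and Hp had values of −0.07, 0.03 and 0.27. In the KEGG pathway of fat digestion and absorption, as the authors' annotation assigns it, 23 of 38 genes were kept, 3 of which were at least 2-fold lower and 1 higher, with a median of −0.20. The lower genes were Apob, Apoa4 and Cd36, the first 2 of which are among the 10, so this is no separate evidence. The higher gene, Mogat2, had 7 and 13 counts and was named after its values were seen. Fabp1, the liver fatty acid binding protein gene, had a value of 0.10.

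These list counts moved with the scaling, as all genes did. With total counts, 26.6% of all kept genes were at least 2-fold lower in KO and 4.6% at least 2-fold higher. Such lower and higher genes numbered 5 and 0 of 18 other apolipoproteins and 9 and 2 of 43 assembly genes. Of 6 editing genes they numbered 1 and 1, and of 17 receptors 6 and 0. They numbered 4 and 0 of 18 remodelling genes, 5 and 2 of 37 transcription factors and 5 and 1 of 37 secreted proteins. Of 34 long transcripts they numbered 5 and 0, and of 23 KEGG pathway genes 10 and 0.

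Markers of the cells of the liver were read alongside. All 10 hepatocyte markers were present, with a median log2 fold change of −0.05 and summed levels of 55056 CPM in WT and 50623 in KO. The markers varied among themselves, from Cyp3a11, with 51743 counts in WT and 12443 in KO (−1.46), Cps1 (−0.63) and Ahsg (−0.53) to Serpina1c (0.26). Kupffer cell and macrophage markers were below 0 for 10 of 10 genes (median −0.40, summed level 225 CPM in WT and 162 in KO). Of the 9 kept stellate cell markers, 8 were below 0 (median −0.52, 195 and 133 CPM), as were 8 of 10 endothelial markers (median −0.42, 122 and 102 CPM). Of the 7 kept cholangiocyte markers, 6 were above 0 (median 0.40, 149 and 194 CPM). With total counts their median was −0.20, still above the −0.60 of all genes. Most of the summed level was Spp1 (116 CPM in WT and 152 in KO). The highest values, of Krt19 and Krt7, rested on 7 and 6 counts in WT and 26 and 15 in KO. Both were named after their values were seen. The intervals of Epcam and Pkhd1 spanned 0, and Sox9 lay at −0.31. Apoe is also expressed by macrophages and stellate cells, and the part of these cells in its lower count was not tested.

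ApoA4 and ApoB are also made by the intestine. Of the enterocyte markers, Cdx1, Alpi, Sis and Lct had 0 counts in both libraries, and Cdx2, Rbp2 and Vil1 had 1, 2 and 4 counts in WT and 0 in KO. Fabp2, with 733 counts in WT and 249 in KO (−0.96), and Apobec1, which was higher in KO, were the only listed enterocyte genes above 10 counts. The summed level of the list was 48.9 CPM in WT and 34.9 in KO, and the part of intestinal RNA in the counts of Apob and Apoa4 was not tested.

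By the pair of FPKM values in the 2 libraries, the protein-coding genes nearest to Apob among 12393 were Ly6d, Gsta1, Ehhadh, Tnfrsf12a and Cstb. On the log2 FPKM scale, their distances from Apob were 0.712, 0.920, 1.07, 1.08 and 1.10. Ly6d, the nearest, codes for a surface protein and had 462 counts in WT and 70 in KO, a log2 fold change of −2.12. Ehhadh, of peroxisomal fatty acid oxidation, had 1532 and 346 counts (−1.55). These genes were picked for matching Apob in both libraries, so their lower values in KO follow from the choice. The match rests on the authors' FPKM, scaled by total counts and, for Apob, by a length of 17662 bases in place of the 13934 bases of its merged exons.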

How the data were processed

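Poly(A) RNA of liver was sequenced as 1 KO and 1 WT library on Illumina HiSeq instruments, and day 3 is taken from the study's text. For each gene the authors deposited a raw read count and an FPKM scaled by the total count of the library. The submitters' processing notes name HISAT2 2.0.4, StringTie, edgeR and hg38, although the identifiers are mouse Ensembl genes. Of these, 34267 are in GENCODE M21, 80.8% with the same coordinates, as for 8 of the 10 genes described here (Apoc1 and Apoe differ slightly). Coordinates are the authors'. The counting of strand and of shared reads was not given in the sources used here. For 997 of 16328 genes, the length behind the authors' FPKM exceeds the gene's span (Apoe: 5592 against 3058 bases), so levels were compared between genes with merged exon lengths, except in the search for the genes nearest to Apob, which used FPKM. No column of other samples was present, and the authors' fold changes and p-values were not used.

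Counts were scaled by TMM (edgeR 4.0.16, R 4.3.3; factors 0.812 in KO and 1.23 in WT), with a prior count of 0.5 and a minimum of 10 counts over both libraries. A gene was called at a 2-fold change. Intervals of fold changes and shares are exact 95% binomial (Clopper-Pearson) intervals. Those of ratios are 95% intervals of the sample odds ratio, by a normal approximation on the log scale. Both were computed in Python 3.11.15 with scipy 1.17.1, numpy 2.4.6 and pandas 2.3.3. Figures were drawn with matplotlib 3.10.9. The scaling was also run on simulated KO and WT counts that held counting error only, with no variation between mice. Only genes with at least 200 counts were changed or scored, and the changes were set well past 2-fold. Of these, 200 of 200 changed genes were recovered, and 0 of 7045 unchanged genes passed 2-fold (11 with total counts). The simulation therefore cannot give the rate of false calls between mice or among genes with fewer counts. The genes, lists and steps were chosen with earlier results of these data known. Named were the 10 genes, list genes at least 2-fold changed with at least 100 counts in the higher library (up to 5 in each direction), the up to 3 genes of a list with the most counts, the 5 genes nearest to Apob and genes that check labels. The text says where others are named, and the values of neighbours and receptors of the 10 are given for context. The alternatives were total counts, total counts without mitochondrial genes and copies, DESeq2 1.42.0 size factors, upper quartile scaling, log2(FPKM + 0.1), a prior count of 5 and minimums of 1 and 50 counts. Lengths from GENCODE were added after seeing the data.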

Additional observations from a re-analysis of the deposited data

How the results depend on the processing

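Apob, Apoa4 and Apoe stayed at least 2-fold lower under all 8 alternatives. With total counts and with log2(FPKM + 0.1), Apom joined them and 9 of the 10 genes lay below 0, and the median of the 10 was −0.46 under both. The other 6 alternatives moved no gene of the 10 by more than 0.0151 on the log2 scale. The number of genes at least 2-fold lower (1348) became 3605 with total counts, 2934 with FPKM, 2763 with a minimum of 1 count and 730 with a minimum of 50. The number higher (1283) became 624, 405, 2269 and 656. No paired analysis was possible because there was 1 library of KO and 1 of WT, and for the same reason no replicate could be left out. Depth limits Apom, Apobec1 and the genes with fewer than 100 counts most.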

Other observations

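TTTGGCAAT, the first 9 bases of miR-182-5p written as DNA, occurs on either strand in 60 of 32851 promoter windows (0.183%), and among the 8 genes with a window in that of Apob alone. This match was noticed after the values were seen. Of 10 kept genes with these 9 letters in a window, 2 were at least 2-fold lower in KO, 1 of them Apob itself, and 0 higher, with a median log2 fold change of −0.32. Since the value of Apob prompted the search, nothing is read from this count. With the 8 letters TTGCCAAA or their complement, 9 of 76 kept genes were at least 2-fold lower and 9 higher, with a median of −0.02, beside 9.17% lower and 8.60% higher of 9957 kept genes with any window. The marked element GACCTTTG or its complement was in a window of 144 kept genes, of which 10 were at least 2-fold lower and 13 higher. For CAAAGTTCA these were 5 and 5 of 50 genes, for CAAAGTCCA 12 and 6 of 66, for TTATGTAA 10 and 5 of 76 and for TTGCGCAA 2 and 3 of 33. For TATAAA they were 97 and 111 of 925, for CACGTG 99 and 86 of 1144 and for GGGGCGGGG 208 and 199 of 2409.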
